A study of Mus musculus with 8 samples.

Results

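The 10 genes described here encode the switch that lets a cell pass from growth to DNA replication or holds it back: the D cyclins (Ccnd1, Ccnd2, Ccnd3), the CDK inhibitors Cdkn1a, Cdkn1b, Cdkn1c and Cdkn2c, and the pocket proteins (Rb1, Rbl1, Rbl2). They were taken by gene symbol from 3 expression tables that together name 23158 symbols, and all 10 were found in each table under their own symbol, none of them merged with another gene. The RNA came from primary mouse myoblasts (the labels' differentiating myoblasts, strain B6/129) grown from sorted satellite cells, the stem cells of muscle, and differentiated for 24 h. The series addresses the role of UTX (Kdm6a), an X-linked histone demethylase, in these cells. The 8 libraries formed 6 groups. Female KO cells, 1 library, carried the UTX-Floxed allele with Pax7-CreER and Rosa26-Floxed-TdTomato, and female WT cells, 1 library, carried Pax7-CreER and Rosa26-Floxed-TdTomato alone. Male KO and male WT cells, 1 library each, and female KI and female Ctrl-KI cells, 2 libraries each, have no genotype in their labels beyond these names, and the KI allele and the animals' ages are not given there. Per the protocols, the UTXmKO and UTXWT cells were sorted for the TdTomato reporter, which Cre switches on, and grown in 20% serum with 2.5 ng/mL FGF and 2.5 µM 4-hydroxytamoxifen, the drug that activates CreER. The same serum, FGF and 4-hydroxytamoxifen are given for all 8 libraries, KI and Ctrl-KI among them. Pax7 drives this Cre in satellite cells, so deletion depends on recombination in each cell.

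D-type cyclins are made in response to growth factors and activate the kinases CDK4 and CDK6, which phosphorylate the pocket proteins RB, p107 and p130. Unphosphorylated pocket proteins hold E2F transcription factors and keep their target genes off, while CDK inhibitors block the kinases. Myoblasts leave the cell cycle for good as they differentiate. In that step p21 (Cdkn1a) and p57 (Cdkn1c) accumulate, RB is needed to keep the cycle closed, and cyclin D3 is the D cyclin known to persist in differentiated muscle cells while cyclin D1 declines.

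Expression was given as FPKM, a level scaled to transcript length and to the mapped fragments of the library, with a deposited confidence interval. Each KO or WT column is a single library, and the 2 libraries of a KI or Ctrl-KI group were pooled before deposit. No column therefore has replicates, a ratio within a table has no replicate check, and p-values come only from a fit over both sexes. Read depth is unknown. The deposited intervals of the 10 genes spanned 106% to 168% of the FPKM in female KO and 106% to 162% in female WT cells, 149% to 202% in male KO and 139% to 219% in male WT cells, and 37.9% to 57.1% in KI and 37.7% to 56.4% in Ctrl-KI cells. The male values are thus the least certain and the KI values the most certain. Kdm6a itself was 16.9 FPKM in female KO and 20.8 in female WT cells, 2.08 in male KO and 7.87 in male WT cells, and 13.2 in KI and 12.8 in Ctrl-KI cells, so the female KO label is only weakly checked by the whole-gene level.

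All 7 myoblast markers examined, among them Pax7, Myod1, Myog and Des, were read in all 6 columns. Their summed level was 1473 FPKM in female KO and 2775 in female WT cells, 2749 in male KO and 7121 in male WT cells, and 5723 in KI and 6781 in Ctrl-KI cells. As deposited, 6 of the 7 lay below control in each comparison and 1 above it. Pax7 lay above control in both KO comparisons, at 5.54 FPKM in female KO and 4.33 in female WT cells. It was 16.3 FPKM in male KO and 5.82 in male WT cells, and 3.30 in KI and 3.33 in Ctrl-KI cells. Myf5 was above control only in KI cells, at 8.76 FPKM in KI and 5.91 in Ctrl-KI cells. The paired intervals of these markers overlapped. The sums of fibro-adipogenic and of endothelial markers were higher in the mutant columns. Summed over 7 fibro-adipogenic markers the level was 555 FPKM in female KO and 229 in female WT cells, 71.7 in male KO and 18.8 in male WT cells, and 305 in KI and 9.82 in Ctrl-KI cells. Of those above 1 FPKM in a column, 3 of 6, 3 of 4 and 5 of 6 were at least 2-fold higher in female KO, male KO and KI cells, where 4.49%, 9.9% and 3.86% of all genes above 1 FPKM were. Of these markers 2 of the 4 and 5 of the 6 were under 1 FPKM in male WT and Ctrl-KI cells and so were kept through the mutant column. The 7 endothelial markers summed to 26.3 FPKM in female KO and 14.5 in female WT cells, 56.8 in male KO and 0.182 in male WT cells, and 1.71 in KI and 0.163 in Ctrl-KI cells. Of the male KO sum Emcn was 40.6 FPKM. The 3 endothelial markers kept in the male table were under 1 FPKM in male WT cells, and 0 of 7 reached 1 FPKM in the KI table. The macrophage gene Lyz2 was 0.943 FPKM in female KO and 0.357 in female WT cells, 7.94 in male KO and 0.681 in male WT cells, and 31.0 in KI and 0.282 in Ctrl-KI cells, whereas Ptprc, which marks all leukocytes, was at most 0.224 FPKM in any column. The 6 immune markers summed to 15.4 FPKM in female KO and 8.54 in female WT cells, 494 in male KO and 392 in male WT cells, and 386 in KI and 357 in Ctrl-KI cells, and the male and KI sums are mostly a locus that merges Cd68 with Eif4a1 and Senp3. The 5 pericyte and smooth muscle markers summed to 344 FPKM in female KO and 680.0 in female WT cells, 731 in male KO and 2003 in male WT cells, and 1854 in KI and 2292 in Ctrl-KI cells, mostly Acta2. Pdgfrb, by contrast, was 21.7 FPKM in female KO and 8.78 in female WT cells and 26.7 in KI and 0.442 in Ctrl-KI cells, and Cspg4 was 5.81 in KI and 0.873 in Ctrl-KI cells. The 4 adipocyte markers summed to 40.1 FPKM in female KO and 29.8 in female WT cells, 21.4 in male KO and 5.69 in male WT cells, and 7.91 in KI and 8.66 in Ctrl-KI cells. Of them Cebpa was 19.9 FPKM in male KO and 5.69 in male WT cells, and Fabp4 was 1.50 in male KO and listed at 0 in male WT cells. Lum and Adipoq were listed at 0 in both male columns, and Plin1 in both columns of the female KO and KI tables. The part of these cells in the values below was not tested. In bulk RNA, fewer cells of a type and less RNA per cell cannot be told apart.

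Ccnd2 was higher in all 3 mutant columns as deposited, whereas Cdkn1c, Cdkn1a and Rb1 were lower in all 3, and the differences were widest in the male libraries. The D cyclin sum was not higher throughout, being 72.6 FPKM in female KO and 100.3 in female WT cells, 903 in male KO and 409.5 in male WT cells, and 289.5 in KI and 317 in Ctrl-KI cells. Ratios are log2((FPKM + 1)/(FPKM + 1)), mutant over control within a table, a scale that understates the change of low genes. By this measure 2 of the 10 genes differed by at least 2-fold in female KO cells, Ccnd2 upward and Cdkn1c downward, where 8.89% of the 12344 genes above 1 FPKM in a column did so (4.49% upward and 4.4% downward). In male KO cells 6 of 10 differed, 3 upward (Ccnd1, Ccnd2, Rbl1) and 3 downward (Cdkn1a, Cdkn1c, Rb1), against a background of 16.4% of 11440 genes (9.9% upward and 6.47% downward). As TPM over all loci the male split was 1 upward (Ccnd1) and 5 downward (Cdkn1a, Cdkn1b, Cdkn1c, Cdkn2c and Rb1). At that scaling 253 of 10235 genes were at least 2-fold higher and 2521 lower. Ccnd2 then stood at 0.65 and Rbl1 at 0.53, and as TPM over loci with a symbol Cdkn1a stood at -0.91. As deposited, 1 of 10 differed in KI cells, Cdkn1c downward, against 4.75% of 11084 genes (3.86% upward and 0.893% downward). The median ratio of the 10 genes was -0.24 in female KO, -0.34 in male KO and -0.14 in KI cells, where the medians of all genes were -0.08, -0.02 and -0.04. Deposited intervals were apart for 0 of 10 genes in the female table, 0 of 10 in the male table and 1 of 10 in the KI table, Cdkn1c, where 0.899%, 0.865% and 12% of all genes had intervals apart. Of the 10 genes 7 lay below control in all 3 tables (Ccnd3, the 4 inhibitors, Rb1 and Rbl2), as did 31.1% of 9808 genes kept in all 3, and 1, Ccnd2, lay above it in all 3, as did 18.2%. Under rescaling the signs of Ccnd1, Ccnd2, Ccnd3, Cdkn1b, Cdkn2c and Rbl2 turned in 1 or more tables, those of Ccnd1 and Ccnd2 in the KI table. The count for female KO is close to its threshold: Cdkn1c lay at -1.004 and Ccnd3 at -0.97, and with centred ratios, a pseudocount of 5 FPKM or TPM only Ccnd2 remained past 2-fold.

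**Figure D1:**
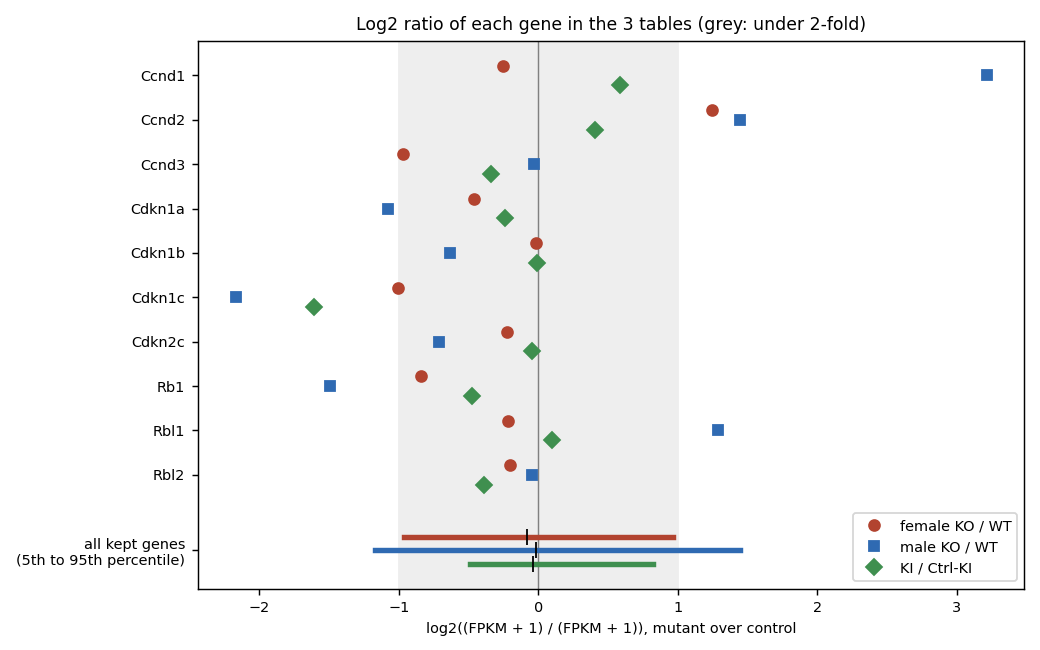
Log2 ratio of FPKM + 1, mutant over control, for the 10 genes (rows) in the female KO (circles), male KO (squares) and KI (diamonds) tables; the lowest row shows the 5th to 95th percentile and the median of all genes above 1 FPKM. Cdkn1c lies left of zero in all 3 tables, Ccnd2 right of it in all 3 (as TPM over all loci its KI value is -0.41), and Ccnd1 stands apart at 3.21 in male KO cells.

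Scaling between libraries is not stated and matters for the direction of small ratios. FPKM rescaled to a common sum per library (TPM) over loci with a gene symbol moved the median ratio of all genes to 0.10 in the female, 0.15 in the male and 0.06 in the KI table. TPM over all loci moved it to -0.70 in the male and -0.77 in the KI table, where unnamed loci take 86.1% of the total FPKM of the male KO column and 72.8% of male WT, and 77.6% of KI and 57.1% of Ctrl-KI. The share of higher genes among all 2-fold differences was 50.5% in the female table as deposited, 63.2% with centred ratios and 73.7% as TPM. In the male table it was 60.5% as deposited, 71.6% as TPM over loci with a symbol and 9.12% as TPM over all loci, and for KI it was 81.2% as deposited and 10.4% as TPM over all loci. Relative to the median of all genes, Ccnd2 was 1.36, 1.35 and 0.36 higher and Cdkn1c stood at -0.94, -2.21 and -1.66 (female KO, male KO and KI) under TPM over all loci.

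Cyclin D1 differed most of the 10 genes, and in 1 sex. Ccnd1 (mm9 chromosome 7, 152115836 to 152125830 in both KO tables), the D cyclin best known as a growth factor sensor, was 410 FPKM (interval 13.4 to 806) in male KO and 43.3 FPKM (13.2 to 73.3) in male WT cells, a log2 ratio of 3.21. Only 0.315% of all genes in the male table lay as far or farther upward, yet the intervals of the KO and WT libraries overlap. In females it was 3.65 FPKM (1.24 to 6.06) in KO and 4.55 FPKM (1.66 to 7.45) in WT cells, a ratio of -0.26, so the female KO value lies below its control. The KI table, whose locus starts at 152100205, gave Ccnd1 at 31.7 FPKM (25.1 to 38.3) in KI and 20.8 FPKM (16.0 to 25.6) in Ctrl-KI cells, a ratio of 0.58 with intervals that just touch. That ratio is -0.22 as TPM over all loci, where it stands 0.55 above the median gene.

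Cyclin D2 was higher in every mutant column as deposited, though below control in KI cells as TPM over all loci. Ccnd2 (chromosome 6, 127075727 to 127162437 in the female tables), which shares the CDK4 and CDK6 partners of cyclin D1, was 25.9 FPKM (12.2 to 39.6) in female KO and 10.4 FPKM (4.76 to 15.9) in female WT cells. That is a linear ratio of 2.50 and a log2 ratio of 1.24. Only 2.39% of female-table genes were as high or higher. In males Ccnd2 was 210 FPKM (4.23 to 415) in KO and 76.2 FPKM (17.9 to 135) in WT cells, a linear ratio of 2.75 and a log2 ratio of 1.45. For KI it was 59.2 FPKM (48.0 to 70.5) in KI and 44.5 FPKM (36.1 to 52.9) in Ctrl-KI cells, a log2 ratio of 0.40, or -0.41 as TPM over all loci. The paired intervals overlapped in each table.

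Cyclin D3 did not follow. Ccnd3 (chromosome 17, 47642000 to 47748441), the D cyclin of differentiating muscle, was 43.0 FPKM (15.7 to 70.3) in female KO and 85.3 FPKM (31.4 to 139) in female WT cells, a log2 ratio of -0.97. In males it was 283 FPKM in KO and 290.0 in WT cells (ratio -0.03, or 0.13 as TPM over loci with a symbol), and with 199 FPKM in KI and 251 in Ctrl-KI cells (ratio -0.34). The intervals of each pair overlapped. Because Ccnd3 supplied most of the D cyclin RNA in every control column, its upstream sequence is shown, read from RefSeq on GRCm38.p6 (another build than the tables' mm9) for the downstream of its 2 listed start sites. The line gives bases -120 to -1 before that site, chr17:47593347-47593466, plus strand, with the GC box (GGGCGG or its complement, at -46) in capitals.
Ccnd3: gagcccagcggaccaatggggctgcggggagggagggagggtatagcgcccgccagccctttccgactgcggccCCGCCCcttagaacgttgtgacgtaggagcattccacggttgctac
The letters GGGCGG occur on either strand in 32.7% of all 32851 promoter windows of 250 bases, and CCAAT, here at -108, in 33.8%.

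**Figure D2:**
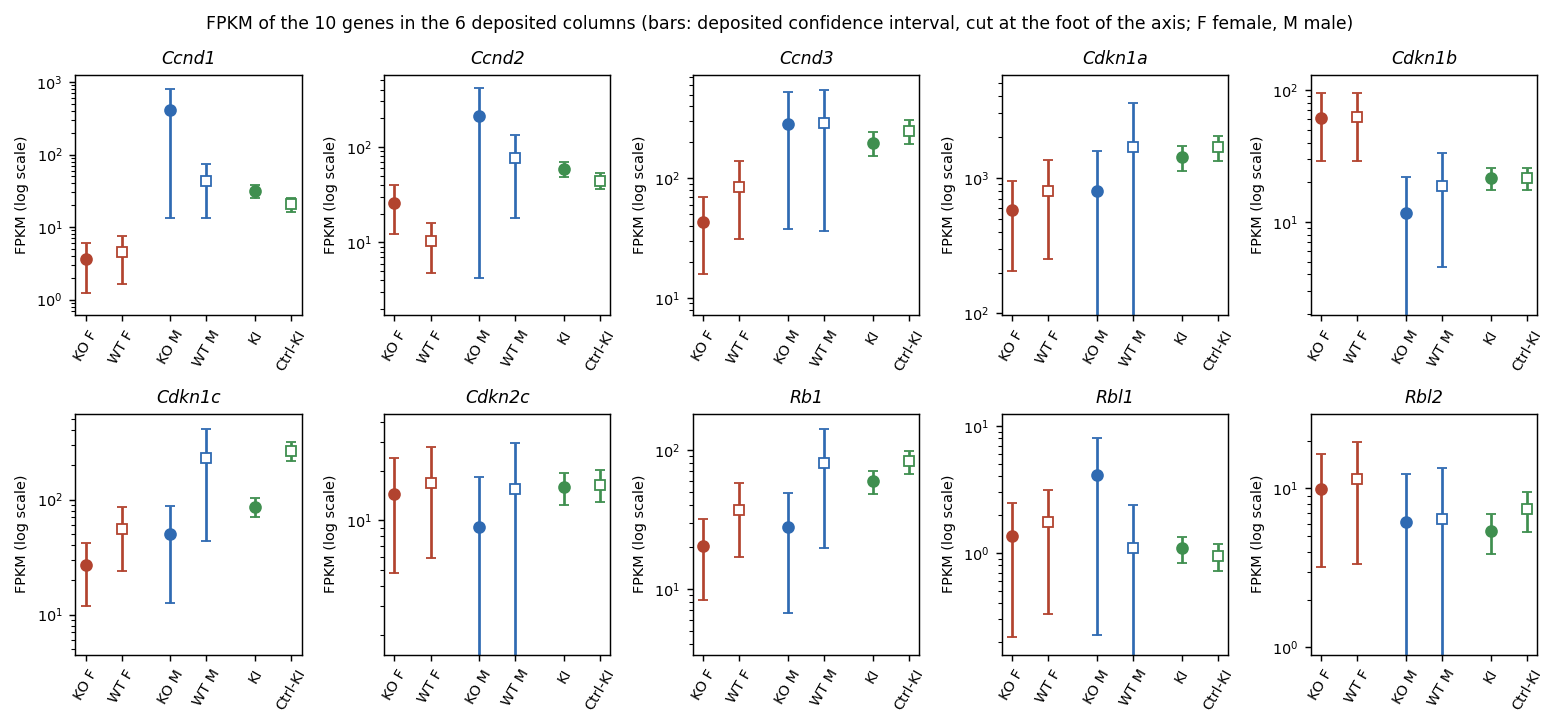
FPKM on a log axis for each of the 10 genes (panels) in female KO, female WT, male KO, male WT, KI and Ctrl-KI columns; filled circles are mutant and open squares control columns, bars are the deposited confidence intervals, and a bar that leaves the panel reaches below the axis. Cdkn1c is the gene whose KI interval (70.4 to 103) lies wholly under its Ctrl-KI interval (216 to 318), and the male bars are the longest.

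Among the CDK inhibitors, p57 was lower in every mutant column. Cdkn1c (chromosome 7, 150644241 to 150647013 in the male table), an imprinted gene expressed from the maternal copy whose protein binds cyclin-CDK complexes, was 26.9 FPKM (11.8 to 42.0) in female KO and 55.0 FPKM (24.2 to 85.9) in female WT cells, a log2 ratio of -1.004. In males it was 49.9 FPKM (12.7 to 87.2) in KO and 228 FPKM (43.3 to 413) in WT cells, a ratio of -2.17, with 1.198% of all male-table genes as low or lower. It was 86.8 FPKM in KI and 267 FPKM in Ctrl-KI cells, a ratio of -1.61, with 0.280% of genes as low or lower. In that table the 2 intervals do not meet, as for 12% of all its genes.

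Cdkn1a (chromosome 17, 29227931 to 29237667 in both KO tables), the p53- and MyoD-inducible inhibitor p21, was the most abundant of the 10 transcripts in all 6 columns. It was 580.1 FPKM (206 to 954) in female KO and 801 FPKM (252 to 1350) in female WT cells, a log2 ratio of -0.46. In males it was 806 FPKM (29.5 to 1583) in KO and 1707 FPKM (0 to 3589) in WT cells, a ratio of -1.08, or -0.91 as TPM over loci with a symbol. Among the KI columns it was 1432 FPKM (1130.1 to 1734) in KI and 1687 FPKM (1326 to 2049) in Ctrl-KI cells, a ratio of -0.24. The mutant value was the lower one in each pair, and the intervals overlapped each time. The upstream sequence of this predominant transcript is shown for the downstream of its 2 RefSeq start sites (bases -120 to -1, chr17:29093649-29093768, GRCm38.p6, plus strand), with both GC boxes, at -104 and -46, in capitals.
Cdkn1a: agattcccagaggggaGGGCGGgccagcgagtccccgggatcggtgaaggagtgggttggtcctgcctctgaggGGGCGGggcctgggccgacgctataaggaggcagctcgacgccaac

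p27, encoded by Cdkn1b (chromosome 6, 134870419 to 134875543 in the female KO table) and regulated largely through protein turnover, was nearly level in the female comparisons. It was 61.6 FPKM in female KO and 62.3 in female WT cells (ratio -0.02, or 0.07 when centred), and 21.5 FPKM in KI and 21.6 in Ctrl-KI cells (ratio -0.01, or 0.03 when centred). In males it was 11.8 FPKM (1.47 to 22.1) in KO and 18.8 FPKM (4.52 to 33.1) in WT cells, a ratio of -0.63. The INK4 inhibitor p18, Cdkn2c (chromosome 4, 109333481 to 109337977 in the female KO table), which binds CDK4 and CDK6 directly, was 14.4 FPKM in female KO and 17.0 in female WT cells (ratio -0.22). It was 9.09 FPKM (0 to 18.4) in male KO and 15.5 FPKM (1.24 to 29.8) in male WT cells (ratio -0.71), and 16.0 in KI and 16.5 in Ctrl-KI cells (ratio -0.05, or 0.05 as TPM over loci with a symbol). None of these intervals was apart from its partner.

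The retinoblastoma gene was lower in every mutant column. Rb1 (chromosome 14, 73595309 to 73725598 in both KO tables) was 20.2 FPKM (8.39 to 32.1) in female KO and 37.1 FPKM (16.8 to 57.4) in female WT cells, a log2 ratio of -0.84. In males it was 27.8 FPKM (6.69 to 48.9) in KO and 80.1 FPKM (19.7 to 140) in WT cells, a ratio of -1.49, with 3.13% of genes as low or lower. Pooled KI cells had 59.5 FPKM (48.1 to 70.8) in KI and 83.0 FPKM (67.1 to 98.8) in Ctrl-KI cells, a ratio of -0.47. A further Rb1 entry on the same span of the KI table held 0.487 FPKM in KI and 1.01 in Ctrl-KI cells, beside the first.

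Of the relatives of Rb1, Rbl1 departed from its pattern, while Rbl2 was below control in all 3 tables as deposited, by less. Rbl1 (p107; chromosome 2, 156971630 to 157030270 in both KO tables), the pocket protein typical of cycling cells and itself a known E2F target, was 4.11 FPKM (0.224 to 7.99) in male KO and 1.09 FPKM (0 to 2.398) in male WT cells, a log2 ratio of 1.29. It was 1.35 FPKM (0.217 to 2.48) in female KO and 1.74 FPKM (0.329 to 3.15) in female WT cells, a ratio of -0.22, and 1.09 in KI and 0.949 in Ctrl-KI cells, a ratio of 0.10. It was the lowest of the 10 in all 6 columns. Rbl2 (p130; chromosome 8, 93593993 to 93659395), the pocket protein of resting cells, was 9.86 FPKM (3.20 to 16.5) in female KO and 11.5 FPKM (3.37 to 19.7) in female WT cells (ratio -0.21). It was 6.17 FPKM (0 to 12.4) in male KO and 6.40 FPKM (0 to 13.5) in male WT cells (ratio -0.04, or 0.11 as TPM over loci with a symbol), and 5.40 in KI and 7.38 in Ctrl-KI cells (ratio -0.39). Since these paralogues differ most in male KO cells, their upstream sequences are set side by side (bases -120 to -1 of the single RefSeq start site of each, GRCm38.p6). Rbl1 lies on the minus strand at chr2:157204535-157204654 and Rbl2 on the plus strand at chr8:91069937-91070056, and capitals mark an E2F motif.
Rbl1: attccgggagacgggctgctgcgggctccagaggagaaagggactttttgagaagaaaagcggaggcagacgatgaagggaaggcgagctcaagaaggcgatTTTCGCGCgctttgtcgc
Rbl2: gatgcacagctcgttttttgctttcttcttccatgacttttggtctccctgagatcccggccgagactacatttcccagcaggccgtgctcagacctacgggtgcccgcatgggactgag
The letters TTTCGCGC, TTTGGCGC and TTTCCCGC (E2F), TTTGAA (CHR), CCAAT and GGGCGG were searched on both strands. Rbl1 holds TTTCGCGC at -18, a motif found in 0.256% of all promoter windows, while any of the 3 E2F motifs occurs in 1.53%. It overlaps no other match. Rbl2 holds TTTGAA at -201, as do 16.0% of windows somewhere. None of the 3 E2F motifs is in the 250 bases before the start sites of Rbl2, Cdkn1a, Cdkn1b, Cdkn2c or Ccnd3, the other genes with an entry. Promoter entries matched 6 of the 10 genes.

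Shares within a column do not depend on how libraries were scaled, and they show how the make-up of D cyclin RNA differed. Ccnd3 made up 59.3% of the summed D cyclin FPKM in female KO and 85.1% in female WT cells, 31.4% in male KO and 70.8% in male WT cells, and 68.6% in KI and 79.4% in Ctrl-KI cells. The Ccnd2 share was 35.7% in female KO and 10.3% in female WT cells, and 23.2% in male KO and 18.6% in male WT cells. The Ccnd1 share was 5.04% in female KO and 4.54% in female WT cells, and 45.4% in male KO and 10.6% in male WT cells. Both were larger in KI cells, Ccnd2 at 20.5% in KI and 14.1% in Ctrl-KI cells and Ccnd1 at 10.9% in KI and 6.57% in Ctrl-KI cells. Cdkn1a supplied 86.8% of the CIP/KIP inhibitor FPKM in female KO and 87.2% in female WT cells, 92.9% in male KO and 87.4% in male WT cells, and 93.0% in KI and 85.4% in Ctrl-KI cells. The share of Cdkn1c was smaller in each mutant column, at 4.03% in female KO and 5.99% in female WT, 5.75% in male KO and 11.7% in male WT, and 5.64% in KI and 13.5% in Ctrl-KI cells. Rb1 was 64.3% of pocket protein FPKM in female KO and 73.7% in female WT cells, 73.0% in male KO and 91.4% in male WT cells, and 90.2% in KI and 90.9% in Ctrl-KI cells. With 1 value per column these shares have no replicate error.

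**Figure D3:**
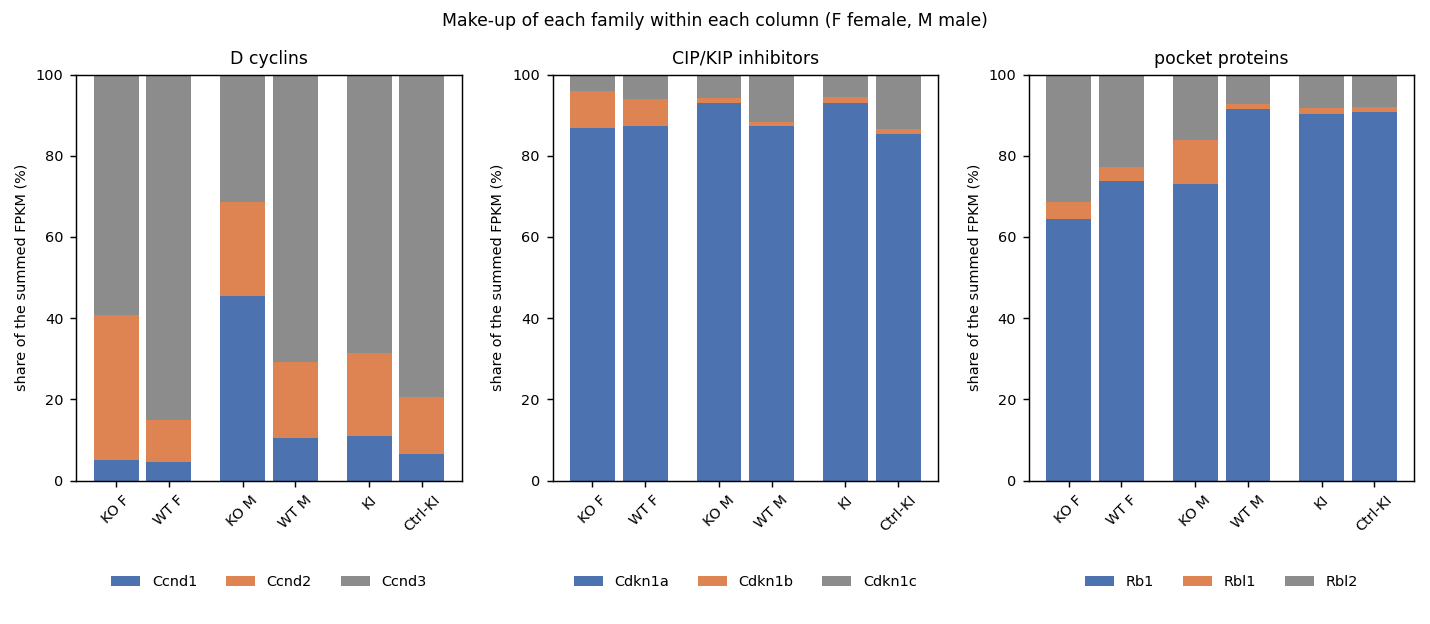
Share of the summed FPKM (%) of each D cyclin, CIP/KIP inhibitor and pocket protein (stacked, 1 panel per family) in female KO, female WT, male KO, male WT, KI and Ctrl-KI columns. The Ccnd3 share is smaller in each mutant column than in its control, down to 31.4% in male KO cells.

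Set against each other, the 4 inhibitors summed to 683 FPKM and the 3 D cyclins to 72.6 FPKM in female KO cells, a ratio of 9.41, which is 9.33 in female WT cells. In male KO cells the ratio was 0.972 (877 FPKM of inhibitors and 903 of D cyclins), against 4.81 in male WT cells (1970.1 and 409.5 FPKM). It was 5.38 in KI and 6.29 in Ctrl-KI cells. The male KO column is thus the only one of the 6 in which the D cyclin sum passed the sum of these 4 inhibitors, with intervals of 149% to 202% of the level. This depends on the genes summed. Left out are Cdkn2a, at 216 FPKM in male KO and 146 in male WT cells, and Cdkn2b, at 37.1 and 13.0 FPKM.

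The order of the 10 levels within each column differed between columns. Cdkn1a led everywhere, and its interval stood clear of the next gene in both female KO-table columns and both KI-table columns but not in the male ones. In male KO cells Ccnd1 was second, followed by Ccnd3 and Ccnd2, and in male WT cells Ccnd3 was second and Ccnd1 sixth. In female KO cells Cdkn1b was second and in female WT cells Ccnd3. In the female KO and male KO tables the intervals of neighbours below Cdkn1a overlapped throughout, so that part of the order is not resolved there. In KI cells Ccnd3 was second and clear of Cdkn1c, which overlapped Rb1, and in Ctrl-KI cells Cdkn1c came second with an interval overlapping that of Ccnd3.

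In a limma fit to the female and male log2 ratios (n = 2, with Benjamini-Hochberg adjustment over all 10525 genes kept in both tables), 0 of the 10 genes passed an adjusted p of 0.05, as did 0.0095% of all genes, which is 1 gene. At an unadjusted p under 0.05 there were 4 of 10, Ccnd2 upward and Cdkn1a, Cdkn1c and Rb1 downward, where 19.9% of all genes reached that level. Ccnd2 had the smallest p, with a mean log2 ratio of 1.35 ± 0.22 (moderated SE of limma) and an adjusted p of 0.0893, higher in both sexes. Cdkn1c averaged -1.59 ± 0.32 (limma adjusted p 0.103) and Rb1 -1.17 ± 0.25 (limma adjusted p 0.110), both lower in both sexes, and Cdkn1a -0.77 ± 0.23 (limma adjusted p 0.156). With the fit limited to 7741 genes above 5 FPKM in a column of each table, Ccnd2 came to a limma adjusted p of 0.0499, and 146 of all genes passed. Under the other alternatives the limma adjusted p of Ccnd2 lay between 0.0828 (pseudocount of 0.1 FPKM) and 0.661 (no filter). Ccnd1, at 1.479 ± 0.77 (limma adjusted p 0.360), and Rbl1, at 0.53 ± 0.41 (limma adjusted p 0.540), had opposite signs in the sexes. The adjusted p of the other 4 genes lay between 0.376 and 0.826.

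The kinases that D cyclins activate were measured in all tables. Cdk4 was 68.8 FPKM in female KO and 64.8 in female WT cells (log2 ratio 0.08). It was 207 FPKM in male KO and 116 in male WT cells (0.83), and 102 in KI and 88.6 in Ctrl-KI cells (0.19). Cdk6 was 5.25 FPKM in female KO and 2.69 in female WT cells (log2 ratio 0.76), 12.9 in male KO and 3.35 in male WT cells (1.67), and 3.65 in KI and 2.54 in Ctrl-KI cells (0.40). Cdk2, the partner of cyclins E and A, had the lowest ratio of the 7 kinase and CAK genes in both KO tables. It was 42.9 FPKM in female KO and 75.6 in female WT cells (ratio -0.80) and 20.1 in male KO and 34.6 in male WT cells (-0.75). Cdk1, the mitotic kinase, had the highest ratio in males, at 16.4 FPKM in KO and 3.20 in WT cells (2.05). Of the 7 genes 0 reached 2-fold in female KO or KI cells, and 2, Cdk6 and Cdk1, did so upward in male KO cells, where 9.9% of all genes did. As TPM over all loci 1 was higher and 2 were lower in male KO cells, where 253 of 10235 genes were higher and 2521 lower. As TPM 1 was higher in female KO cells, where 1197 of 13594 genes were. In this and the following lists the TPM counts keep the genes above 1 FPKM as deposited. The TPM counts of all genes beside them take genes above 1 TPM in a column, so the 2 sets are filtered differently.

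E2F target genes of S phase, 18 in the list with Rbl1 itself among them, were higher in all 18 cases in male KO cells as deposited (17 as TPM over all loci, where Rrm1 is lower), in 14 of 18 in female KO cells and in 11 of 14 in KI cells (1 of 14 as TPM over all loci). As deposited, the median ratio of all genes was -0.02 in male KO, -0.08 in female KO and -0.04 in KI cells. More of all genes thus lay below control than above it in each table. At least 2-fold higher were 15 of 18 in male KO cells (9.9% of all genes), 0 of 18 in female KO cells (4.49%) and 0 of 14 above 1 FPKM in KI cells (3.86%). With TPM over loci with a symbol these counts were 17, 3 and 1, where 1799 of 12392, 1197 of 13594 and 679 of 12172 genes were higher. With TPM over all loci they were 3, 3 and 0, where 253 of 10235, 1197 of 13594 and 196 of 10715 genes were higher. Relative to the median of all genes the male KO median of the list was 1.38 as deposited and 1.27 as TPM over all loci. Leaving out the 4 genes under 1 FPKM in male WT cells, which passed only through the KO library, 12 of 14 were 2-fold higher with a median of 1.55, where the median of all genes was -0.02. The female median over the 14 genes at 1 FPKM in WT was 0.25. Mcm3, a subunit of the replicative helicase, was the highest in both KO tables, at 5.08 FPKM in female KO and 2.29 in female WT cells (log2 ratio 0.89) and 13.1 in male KO and 1.84 in male WT cells (2.31). Thymidine kinase, Tk1, was lowest in females, at 11.3 FPKM in KO and 15.1 in WT cells (-0.39), and 9.85 in male KO and 2.02 in male WT cells (1.85). Rrm1, a ribonucleotide reductase subunit, was lowest in males, at 28.3 FPKM in KO and 19.5 in WT cells (0.52), and the only gene of this list with intervals apart in the KI table, at 25.6 FPKM in KI and 13.3 in Ctrl-KI cells (0.90). That is 1 of 14 genes in the KI table, where 12% of all genes had intervals apart. Deposited intervals overlapped for all 18 in both KO tables, where 0.899% (female) and 0.865% (male) of all genes had intervals apart.

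**Figure D4:**
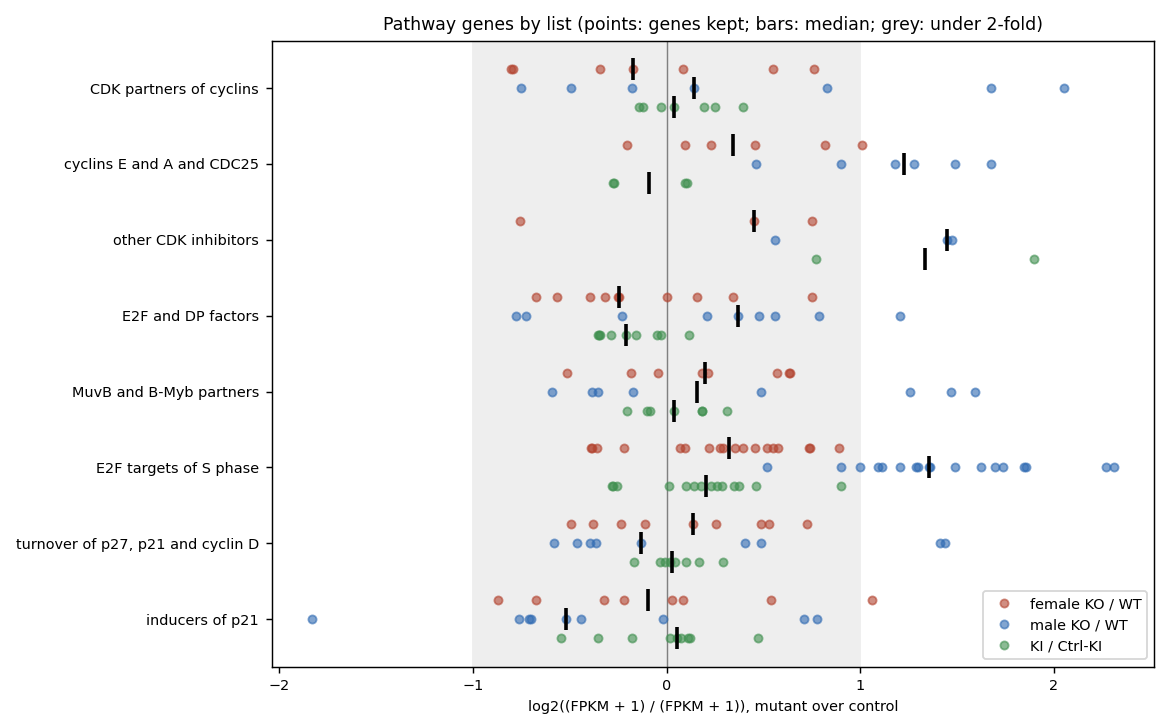
Log2 ratio of FPKM + 1, mutant over control, of the genes above 1 FPKM in 8 pathway lists (rows) in the female KO, male KO and KI tables (red, blue and green); black bars are medians and the grey band is under 2-fold. The S phase targets of E2F lie right of the band in male KO cells for 15 of 18 genes as deposited (3 of 18 as TPM over all loci) and within it for all 18 in female KO cells.

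Of the E2F and DP factors, as deposited, few passed 2-fold. Of 10 genes 0 passed 2-fold in female KO cells, 1 of 9, E2f7, in male KO cells (9.9% of all genes upward), and 0 of 9 in KI cells. As TPM over all loci 0 were higher and 2 lower in male KO cells, and 5 of 9 were lower in KI cells. Of all genes 2521 of 10235 were 2-fold lower in male KO cells at that scaling, and 1683 of 10715 in KI cells. E2f7, a repressing E2F, was 1.27 FPKM in female KO and 0.349 in female WT cells (log2 ratio 0.75) and 1.70 in male KO and 0.169 in male WT cells (1.21), so it passed the 1 FPKM limit only through the KO columns. E2f4, the partner of p107 and p130 in resting cells, was lowest in both, at 37.2 FPKM in female KO and 59.95 in female WT cells (-0.67) and, merged with Elmo3, 29.3 in male KO and 51.0 in male WT cells (-0.78). Of the MuvB and B-Myb list, the Lin and Rbbp4 subunits bind p107 and p130 in quiescence. Among the 8 genes of this list 0 passed 2-fold in female KO, 3 upward in male KO (9.9% of all genes) and 0 of 7 in KI cells. Of the 3, Mybl1 and Mybl2 were under 1 FPKM in male WT cells, and among the other 6 genes 1 passed, with a median of -0.27. As TPM over all loci 0 were higher and 2 lower in male KO cells, where 253 of 10235 genes were higher and 2521 lower. Foxm1, an activator of mitotic genes that is merged with a neighbouring transcript, led with 4.35 FPKM in female KO and 2.44 in female WT cells (0.64) and 7.38 in male KO and 1.78 in male WT cells (1.59). The lowest were the histone-binding subunit gene Rbbp4 in females, 48.7 FPKM in KO and 70.1 in WT cells (-0.52), and Lin37 in males, 11.1 FPKM in KO and 17.2 in WT cells (-0.59).

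Cyclins E and A with the CDC25 phosphatases were at least 2-fold higher in 1 of 6 cases in female KO, 4 of 6 in male KO and 0 of 4 in KI cells, where 4.49%, 9.9% and 3.86% of all genes were. The male count was 0 of 6 as TPM over all loci, where 253 of 10235 genes were higher. Leaving out genes under 1 FPKM in WT cells, which passed only through the KO library, changed the counts as deposited. They were then 0 of 5 in female KO and 3 of 4 in male KO cells. Ccna2, cyclin A2, was 17.2 FPKM in male KO and 4.70 in male WT cells (log2 ratio 1.67). Cdc25c, which activates CDK1, was past 2-fold in both sexes, at 2.87 FPKM in female KO and 0.926 in female WT cells (1.01) and 2.26 in male KO and 0.349 in male WT cells (1.28), again kept only through the KO columns. Cdc25a was lowest, at 3.51 FPKM in female KO and 4.19 in female WT cells (-0.20) and 8.80 in male KO and 6.13 in male WT cells (0.46).

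Of the other CDK inhibitors, Cdkn2b was higher in all 3 mutant columns under every scaling, and Cdkn2a as deposited but not in male KO or KI cells as TPM over all loci. Cdkn2b (p15, an INK4 inhibitor induced by TGF-beta) was 24.7 FPKM in female KO and 14.3 in female WT cells (log2 ratio 0.75), 37.1 in male KO and 13.0 in male WT cells (1.45), and 43.2 in KI and 10.9 in Ctrl-KI cells (1.90, intervals apart). Cdkn2a, the INK4A and ARF locus, was 28.7 FPKM in female KO and 20.7 in female WT cells (0.45), 216 in male KO and 146 in male WT cells (0.56), and 136 in KI and 79.2 in Ctrl-KI cells (0.77, intervals apart). Intervals were apart for 12% of all genes in the KI table. Cdkn3, a phosphatase of CDKs, was 3.46 FPKM (0 to 7.74) in male KO and 0.607 in male WT cells (1.47). It thus passed the 1 FPKM limit only through the male KO column, and was under that limit in the female and KI tables. Cdkn2d (p19) was 1.92 FPKM in female KO and 3.92 in female WT cells (-0.75).

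Of the 9 genes that control the turnover of p27, p21 and cyclin D, 0 passed 2-fold in female KO cells, 2 did so upward in male KO cells (9.9% of all genes) and 0 of 8 in KI cells. In male KO cells 0 were higher and 3 lower as TPM over all loci, where 253 of 10235 genes were higher and 2521 lower. Cks1b, the cofactor that lets SCF-SKP2 recognise p27, was highest in both sexes, at 19.9 FPKM in female KO and 11.7 in female WT cells (log2 ratio 0.72) and 72.3 in male KO and 26.0 in male WT cells (1.44). Ddb1 was lowest in females, 219 FPKM in KO and 308 in WT cells (-0.49), and Fbxo31 in males, 3.94 FPKM in KO and 6.38 in WT cells (-0.58). Among 10 genes known to induce p21, 1 of 8 was at least 2-fold higher in female KO cells (4.49% of all genes), 1 of 9 lower in male KO cells (6.47%) and 0 of 9 past 2-fold in KI cells. With TPM over all loci 5 of 9 were lower in male KO and 3 of 9 in KI cells, where 2521 of 10235 and 1683 of 10715 genes were. Myog was lowest in males, 961 FPKM in KO and 3424 in WT cells (-1.83), and Myod1 in females, 104 FPKM in KO and 190 in WT cells (-0.87). Trp53, the gene of p53, was 85.7 FPKM in male KO and 49.7 in male WT cells (0.77) and 52.8 in female KO and 51.7 in female WT cells (0.03). Foxo3 was the 1 gene of this list past 2-fold in females, 76.7 FPKM in KO and 36.2 in WT cells (1.06), and was 17.8 in male KO and 24.5 in male WT cells (-0.44). Mki67, the proliferation marker, was 13.3 FPKM in female KO and 2.65 in female WT cells (1.97), 7.13 in male KO and 0.939 in male WT cells (2.07), and 0.910 in KI and 0.671 in Ctrl-KI cells.

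For the gene of each family with the largest mean absolute ratio, the 3 genes nearest to it over its 3 log2 ratios (Euclidean distance, n = 3 ratios, 7083 genes searched) were found. Ccnd1 had no close neighbour. The nearest were Spp1 at a distance of 0.69, with ratios of 0.35 in female KO, 2.97 in male KO and 0.35 in KI cells, Cx3cl1 at 0.74 and Cxcl12 at 0.86. Cdkn1c was nearest to Myl2 at 0.48, with ratios of -1.04, -2.65 and -1.56, followed by Itgb6 at 0.55 and Tceal7 at 0.62. Rb1 was nearest to Bod1 at 0.06, Maged2 at 0.07 and Sspn at 0.12. A pattern of 3 values is easily shared, so these distances describe likeness and no more.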

How the data were processed

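RNA-seq of 8 libraries in 6 groups, assigned by title, was taken as processed by the authors. Per the file headers, FPKM values and their confidence bounds (level not stated) were deposited for 2 columns in each of 3 tables, in Cufflinks' gene tracking format; the 2 libraries of each KI group share 1 pooled column. The submitters' processing notes name mm9 with TopHat2 2.0.12, Bowtie2 2.2.4, HTSeq 0.6.1, Cufflinks 2.2.1, Cuffdiff, edgeR and bedtools 2.16.2, without role or order, and no annotation. FPKM keeps no counts, so depth is unknown and no count test was run. Starts are printed counted from 1.

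Loci without a symbol or without status OK in both columns were left out, and genes needed 1 FPKM in 1 column; 12344, 11440 and 11084 loci remained (female, male, KI). Ratios used a pseudocount of 1 FPKM. Of loci that repeat a symbol, the one with the highest mean FPKM was used across tables. Tables were estimated separately, on loci that differ in span, so no level was tested between them. A limma 3.58.1 fit (R 4.3.3, mean-variance trend) was made to the 2 within-sex ratios, after a test on simulated data. Whether libraries stand for separate animals is not stated, so the p-values measure only the spread between these samples. Strand is not stated, so overlapping genes are uncertain. Named are the 10 genes, of each list the highest and lowest kept member in each KO table and those past 2-fold in both, and context genes. Single marker genes, Cdk4 and the promoter windows printed were chosen after values were seen, and the scaling of the lists was varied after their values were seen. The members and lists were chosen with earlier results of these data known. Python 3.11.15, pandas 2.3.3 and matplotlib 3.10.9 were used. Promoter sequences are from RefSeq on GRCm38.p6; the letters after each start site occur in GENCODE transcripts of the same gene.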

Additional observations from a re-analysis of the deposited data

Results flagged for a closer look

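Among the genes named, 6 had ratios of opposite sign in the 2 sexes, each with 1 KO and 1 WT library, and the difference between the sexes was not tested. Ccnd1 had a log2 ratio of 3.21 in male KO cells and -0.26 in female KO cells, a difference of 3.47. Rbl1 had 1.29 in males and -0.22 in females, a difference of 1.51. Tk1 had 1.85 and -0.39, a difference of 2.24, Rrm1 0.52 and -0.38, a difference of 0.90, and Cdc25a 0.46 and -0.20, a difference of 0.66. Foxo3 ran the other way, with -0.44 in males and 1.06 in females, a difference of -1.50.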

How the results depend on the processing

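The count of 2-fold genes in the female table, 1097, was 1747 with a pseudocount of 0.1 FPKM, 442 with 5 FPKM, and 111 by intervals that do not overlap. In the male table, 1872 became 918 with a pseudocount of 5 FPKM and 99 by intervals. In the KI table, 527 became 224 with a pseudocount of 5 FPKM, 344 with a filter of 5 FPKM, 1879 as TPM over all loci and 1330 by intervals. The count of the 10 genes past 2-fold in female KO cells, 2, was 1 with a pseudocount of 5 FPKM, with centred ratios and as either TPM, and in KI cells it was 5 rather than 1 as TPM over all loci, which lowers all ratios there. In the limma fit the 1 gene called became 0 with a pseudocount of 5 FPKM, with no filter, with centred ratios or without the trend, and 146 with a filter of 5 FPKM. The mean ratio of Rbl2 over both sexes, -0.13, was 0.031 as TPM over loci with a symbol. Of 205 ratios of the 10 genes under alternatives, 10 changed sign, each of them under 2-fold as deposited. In male KO cells Rbl1 lost its 2-fold call with a pseudocount of 5 FPKM (0.58); as TPM over all loci 6 genes passed there too, but 1 upward and 5 downward. Apart from the scaling, the cause was not tested. The limma fit pairs KO with WT within each sex. By replicate number, no paired analysis was possible because such numbers exist only in the KI groups, whose libraries share 1 pooled column; for the same reason no replicate was left out, and dropping 1 sex leaves the ratio of the other with no test.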

Other observations

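Genes whose 250 upstream bases hold TTTCGCGC, TTTGGCGC or TTTCCCGC on either strand, as Rbl1 does, are described here for all promoters matched by symbol. Of such genes, 282 were above 1 FPKM in the male table, and 14.2% of them were at least 2-fold higher in KO than in WT cells, against 9.68% of the 7855 genes with a promoter entry. Among 310 such genes in females, 1.61% were at least 2-fold higher in KO cells, against 4.18% of 8706 genes. Among 257 in KI cells, 0.778% were higher, against 3.41% of 7447. Their median log2 ratios were 0.07 in male KO, -0.04 in female KO and -0.02 in KI cells, near those of all genes with a promoter entry (-0.02, -0.09 and -0.04). The letters were chosen with earlier results of these data known, and these shares were not tested.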
